A study of Mus musculus with 4 samples.

Results

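Macrophages act on their surroundings through secreted growth factors, and 9 such ligand genes and 1 receptor gene were examined in the resident macrophages of the lung alveoli. The ligands were Csf1, Pdgfa, Pdgfb, Pdgfc, Igf1, Vegfa, Vegfb, Hbegf and Tgfa, and the receptor was Csf1r. These 10 genes, of 19751 on the array, were chosen by name with their difference between the genotypes already known, so that difference is described here and not tested. They were represented by 20 of the 39429 probes, namely those assigned to a RefSeq transcript of 1 of the genes.

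RNA came from alveolar macrophages of wild-type mice (WT) and of mice lacking the transcription repressor Bach2 (Bach2KO), collected in a study of surfactant homeostasis. Neither strain, age, sex nor treatment of the mice is given in the sources used here, nor are the construction of the Bach2KO allele and the gate used for flow cytometric sorting. Cells were pooled over 8 WT mice, and over 4 Bach2KO mice by the protocol or 3 by the design text. A single RNA preparation per genotype was split before labelling with the dye Cy3, which gave 2 arrays for each. The 2 arrays of a genotype therefore repeat the labelling and hybridisation, not the mice, and no p-value exists for the genotype. In such bulk RNA, a larger number of expressing cells and more RNA in each cell cannot be told apart.

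Values are log2 signals after subtraction of the 75th percentile of the same array, so 0 is that percentile. Each array had between 27125 and 27918 probes well above background. To be called higher or lower, a gene had to be at least 2-fold apart, in the same direction, in all 4 pairings of the Bach2KO with the WT arrays. Where a probe was well above background on neither array of a genotype, only a lower bound of the fold was available, and it also had to reach 2-fold. The Bach2 probe gave log2 signals of -6.32 and -6.28 in WT and of -5.16 and -8.13 in Bach2KO, and was well above background on 1 array of each genotype, so it gave no check of the labels. Of 19 alveolar macrophage markers all were measured. Among them 3 were higher in Bach2KO and 8 lower, beside 8.37% and 5.9% of all measured genes. The largest folds were those of Fabp1 (148-fold lower), Cidec (68.3-fold lower), Krt79 (16.8-fold lower), Spp1 (12.8-fold higher) and Siglecf (12.6-fold lower). The sum of the 19 signals, in multiples of the 75th percentile, was between 1408 and 1570 in WT and between 1242 and 1243 in Bach2KO. Without Chil3, the largest gene of the sum, it was 1167 to 1274 and 863 to 872.

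Csf1 encodes macrophage colony-stimulating factor, the ligand through which Csf1r supports survival and proliferation of mononuclear phagocytes. Platelet-derived growth factors (PDGFs) are dimeric mitogens of fibroblasts and smooth muscle, the Pdgfa and Pdgfb chains being ready on secretion and the Pdgfc chain needing proteolytic removal of a CUB domain. Insulin-like growth factor 1 (Igf1) promotes growth of many cell types, the vascular endothelial growth factors (VEGFs) act on endothelium, and Hbegf and Tgfa are membrane-anchored ligands of the epidermal growth factor (EGF) receptor that are shed by metalloproteases.

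All 10 genes had a probe that passed the filter, which required 1 genotype or both to have a signal well above background on each of its arrays. By its brightest probe 5 genes were higher in Bach2KO (Csf1, Pdgfa, Igf1, Hbegf and Vegfb), 1 was lower (Pdgfc) and 4 met neither condition (Csf1r, Pdgfb, Vegfa and Tgfa). Over all 15122 measured genes 8.37% were called higher and 5.9% lower (14.3% in either direction), a split of 1266 to 892 that became 601 to 3283 with scaling on spike-in probes. Since the same contrast chose the members, nothing is read from that difference in shares. The median difference was 1.86 for the 10 genes, or 1.41 with dim probes at their bound, and 0.06 for all genes. Of the 19 probes that passed the filter 11 were higher, 1 lower and 7 neither, beside 6.87% higher and 6.3% lower (13.2% in either direction) among 27794 probes. The threshold fell between Vegfb, whose nearest array pair differed by 1.88, and Vegfa, whose nearest pair differed by 1.51 but whose bound was 0.92.

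**Figure D1:**
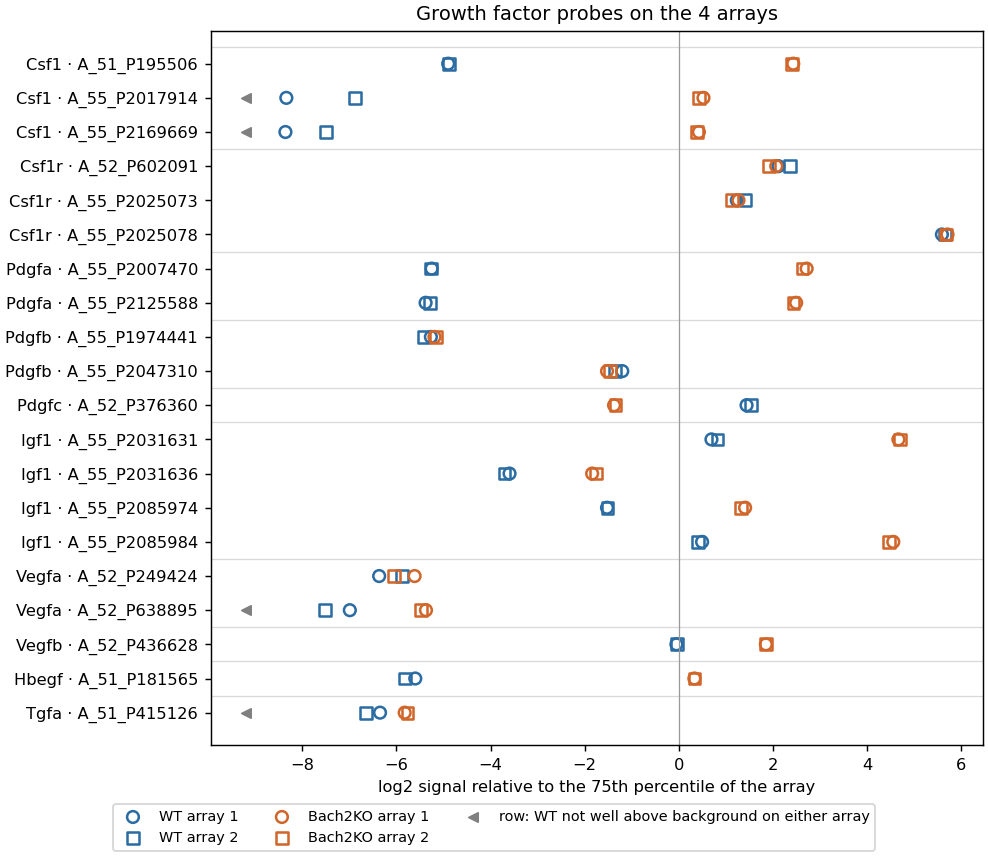
Log2 signal of each of the 20 growth factor probes on the 2 WT arrays (blue) and the 2 Bach2KO arrays (orange), relative to the 75th percentile of each array. Probes of Csf1, Pdgfa, Igf1, Hbegf and Vegfb lie to the right in Bach2KO and the probe of Pdgfc to the left, while those of Csf1r and Pdgfb nearly coincide.

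The ligand gene Csf1 was far higher in Bach2KO on every one of its probes. Its probe A_51_P195506, assigned to transcript NM_007778, was printed 10 times on each array. Averaged over the spots, WT gave log2 signals of -4.90 and -4.88 and Bach2KO of 2.43 and 2.41, 159-fold higher. The arrays of a genotype differed by 0.02, whereas the closest pair of arrays of different genotypes differed by 7.29.

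The replicate spots show the error behind this value. In processed signal units, the lowest, median and highest spot were 38.2, 42.4 and 47.5 on WT array 1 and 45.6, 50.1 and 64.0 on WT array 2. On Bach2KO array 1 they were 5311, 5627 and 5864, and on Bach2KO array 2 they were 4881, 5189 and 5442. The brightest WT spot was thus far below the dimmest Bach2KO spot, and every spot was well above background on every array. The SD over the 10 spots was 0.12 and 0.16 in WT and 0.05 on each Bach2KO array (log2), which covers spot-to-spot error only.

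A further 2 probes of Csf1, both assigned to transcript NM_001113530, were not well above background on either WT array. Probe A_55_P2017914 had log2 signals of -8.34 and -6.89 in WT and of 0.52 and 0.43 in Bach2KO, at least 113-fold higher. Probe A_55_P2169669 had signals of -8.36 and -7.50 in WT and of 0.43 and 0.39 in Bach2KO, at least 108-fold higher. These bounds depended on the processing, at 67.0-fold and 63.9-fold with spike-in scaling and 26.2-fold and 25.3-fold with normexp background correction. The 3 probes of Csf1 were called alike under each.

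The receptor gene Csf1r did not follow its ligand. Its brightest probe, A_55_P2025078, had log2 signals of 5.59 and 5.66 in WT and of 5.71 and 5.68 in Bach2KO, so all array pairs lay between 0.03 and 0.12. Probe A_52_P602091 had 2.12 and 2.36 in WT and 2.07 and 1.91 in Bach2KO, a difference of -0.25. Probe A_55_P2025073 gave 1.23 and 1.42 against 1.27 and 1.13, with overlapping genotypes and a difference of -0.13. The sign of the small difference thus depended on the probe, and that of the brightest probe also on the scaling (median centring gave -0.03, quantile normalization -0.11 and spike-in scaling -0.69).

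By the brightest probe of each gene, Pdgfa had the largest difference of the 10 genes, whereas by the mean of a gene's probes Csf1 did, at 7.91 against 7.87. That Csf1 mean includes the probes that were dim in WT, at 8.09 and 8.34, whose lower bounds were 6.83 and 6.76 (log2). The order of Csf1 and Pdgfa by that mean therefore depends on WT signals near background. Probe A_55_P2007470 had log2 signals of -5.25 and -5.27 in WT and of 2.72 and 2.63 in Bach2KO, 244-fold higher. Probe A_55_P2125588, of the same transcript NM_008808, had -5.38 and -5.29 in WT and 2.49 and 2.44 in Bach2KO, 223-fold higher. Both probes were well above background on all 4 arrays, and in both the WT and Bach2KO arrays lay far apart. Pdgfa ranked 20th from the top of 15122 genes by difference, and Csf1 38th.

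The paralogue Pdgfb, whose chain pairs with itself or with the Pdgfa chain, stayed close between the genotypes. Its brighter probe, A_55_P2047310, had log2 signals of -1.20 and -1.35 in WT and of -1.53 and -1.46 in Bach2KO. Its dimmer probe, A_55_P1974441, had -5.27 and -5.43 in WT and -5.19 and -5.17 in Bach2KO. The genotypes did not overlap on either probe, but the differences of -0.21 and 0.17 had opposite signs and were close to the largest gap of 0.24 between arrays of 1 genotype. Spike-in scaling gave -0.97 for the brighter probe and -0.59 for the dimmer one.

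Pdgfc was the only one of the 10 genes that was lower in Bach2KO. Its single probe, A_52_P376360 (transcript NM_019971), had log2 signals of 1.44 and 1.53 in WT and of -1.38 and -1.34 in Bach2KO, 7.18-fold lower. The array pairs lay between -2.90 and -2.78, and the gene was 158th from the bottom of 15122 genes. Of the 3 PDGF chains among the members, 1 was therefore higher, 1 lower and 1 met neither condition.

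Promoter sequence is shown for the most different pair that was higher and for the gene that was lower, to set these unlike members side by side. Each run is the 250 bases before a RefSeq transcription start in build GRCm38.p6, written 5′ to 3′ on the strand of the gene. The windows are chr3:107760470-107760719 (minus strand) for Csf1, chr5:138994945-138995194 (minus strand) for 1 of the 2 listed starts of Pdgfa, and chr3:81036166-81036415 (plus strand) for Pdgfc.
Csf1: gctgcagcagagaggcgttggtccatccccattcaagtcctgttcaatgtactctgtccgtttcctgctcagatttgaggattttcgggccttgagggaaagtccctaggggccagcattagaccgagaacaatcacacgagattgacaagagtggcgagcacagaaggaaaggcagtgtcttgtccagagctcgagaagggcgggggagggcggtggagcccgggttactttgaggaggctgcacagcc
Pdgfa: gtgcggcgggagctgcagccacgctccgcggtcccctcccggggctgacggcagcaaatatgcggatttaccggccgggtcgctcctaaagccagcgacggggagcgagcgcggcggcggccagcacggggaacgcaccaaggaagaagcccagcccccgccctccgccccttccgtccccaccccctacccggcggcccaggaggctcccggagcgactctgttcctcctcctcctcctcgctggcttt
Pdgfc: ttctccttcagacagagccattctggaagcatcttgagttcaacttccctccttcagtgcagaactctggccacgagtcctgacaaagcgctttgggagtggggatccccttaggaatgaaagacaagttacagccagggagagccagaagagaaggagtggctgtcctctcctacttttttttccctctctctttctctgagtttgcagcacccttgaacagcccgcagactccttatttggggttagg

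No letters are capitalised, because neither motif searched was found in these windows. The motifs, on both strands, were TGACTCA, the core shared by AP-1 and by heterodimers of CNC and Maf factors, and the longer GCTGAGTCA, part of a Maf recognition element that contains the first motif. RefSeq promoters were listed for 7 of the 10 genes, with 9 starts in all, and 0 of the 9 windows held TGACTCA, beside 4.46% of all 32851 windows of this length. The longer form was in 0.39% of all windows. This says only that these letters are not in 250 bases. The G and C content was 56.4% in the Csf1 window, 72.4% in that of Pdgfa and 50.8% in that of Pdgfc.

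Igf1 was higher in Bach2KO on each of its 4 probes, all assigned to NM_010512, but by different amounts. The brightest, A_55_P2031631, had log2 signals of 0.69 and 0.82 in WT and of 4.67 and 4.70 in Bach2KO, 15.2-fold higher. Probe A_55_P2085984 had 0.49 and 0.41 in WT and 4.56 and 4.47 in Bach2KO, 16.7-fold higher. The genotypes lay far apart on both probes.

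The other 2 Igf1 probes showed smaller folds. Probe A_55_P2085974 had -1.53 and -1.51 in WT and 1.41 and 1.32 in Bach2KO, 7.37-fold higher. Probe A_55_P2031636 had -3.60 and -3.70 in WT and -1.84 and -1.76 in Bach2KO, 3.60-fold higher. The differences of the 4 probes thus spanned 2.21 (log2), far more than the arrays of a genotype differed on any of them, and the sources used here do not give the part of the transcript that each probe binds.

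Of the VEGF ligands Vegfb was higher and Vegfa was near the limit of detection. The single Vegfb probe, A_52_P436628, had log2 signals of -0.05 and -0.03 in WT and of 1.85 and 1.86 in Bach2KO, 3.72-fold higher. Its 4 array pairs lay within 1.88 and 1.91, so the difference was large beside the error of labelling and hybridisation. The call of Vegfb ended with spike-in scaling, where the difference was 1.14 and not every array pair reached 2-fold.

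Vegfa, the main angiogenic member of the family, was read by a pair of dim probes. Probe A_52_P638895 (NM_001025250) was well above background on both Bach2KO arrays, at -5.37 and -5.48, and on neither WT array, at -6.99 and -7.51. Its fold was at least 1.90, which missed the 2-fold rule. Probe A_52_P249424 (NM_001025257) had -6.37 and -5.88 in WT and -5.62 and -6.05 in Bach2KO, with overlapping genotypes, and did not pass the filter because only 1 array of each genotype was well above background. With so little signal a difference in Vegfa was not resolved by these probes.

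The EGF receptor ligands Hbegf and Tgfa differed from each other. Hbegf, by probe A_51_P181565 (NM_010415), had log2 signals of -5.60 and -5.82 in WT and of 0.33 on each Bach2KO array, 65.8-fold higher. In processed signal units the WT arrays read 26.1 and 26.9 and the Bach2KO arrays 1303 and 1231. The WT signals were dim but well above background, and the genotypes lay far apart.

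The Tgfa probe, A_51_P415126 (NM_031199), was printed 10 times per array and stayed near background in both genotypes. Its log2 signals were -6.35 and -6.65 in WT and -5.83 and -5.77 in Bach2KO, and the bound of 1.47-fold met neither condition. Of the 10 spots, 4 and 3 were well above background on the WT arrays and 7 on each Bach2KO array. The SD over spots was between 0.25 and 0.53 (log2), larger than on any array for Csf1, and the spots of the genotypes overlapped. The difference was 0.70, and -0.06 with spike-in scaling.

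**Figure D2:**
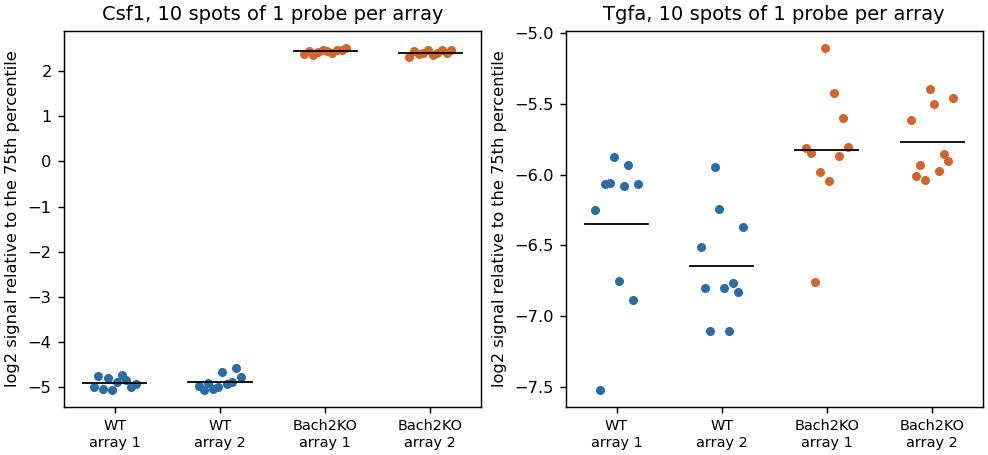
Log2 signal, relative to the 75th percentile of the array, of the 10 spots of the Csf1 probe A_51_P195506 (left) and of the Tgfa probe (right) on each array, with black bars at the mean. The spots of Csf1 form tight groups near -4.90 in WT and 2.43 in Bach2KO, whereas those of Tgfa scatter between -7.52 and -5.11 and overlap.

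Over the 15 probes with a signal well above background throughout, the arrays of a genotype differed by 0.08 in the median and by 0.24 at most. The smallest difference among the 6 called genes was 1.90, for Vegfb. A called gene had to exceed that technical gap, because the rule asked for 2-fold in all 4 pairings. The gap contains no variation between mice, since each genotype was 1 RNA preparation.

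**Figure D3:**
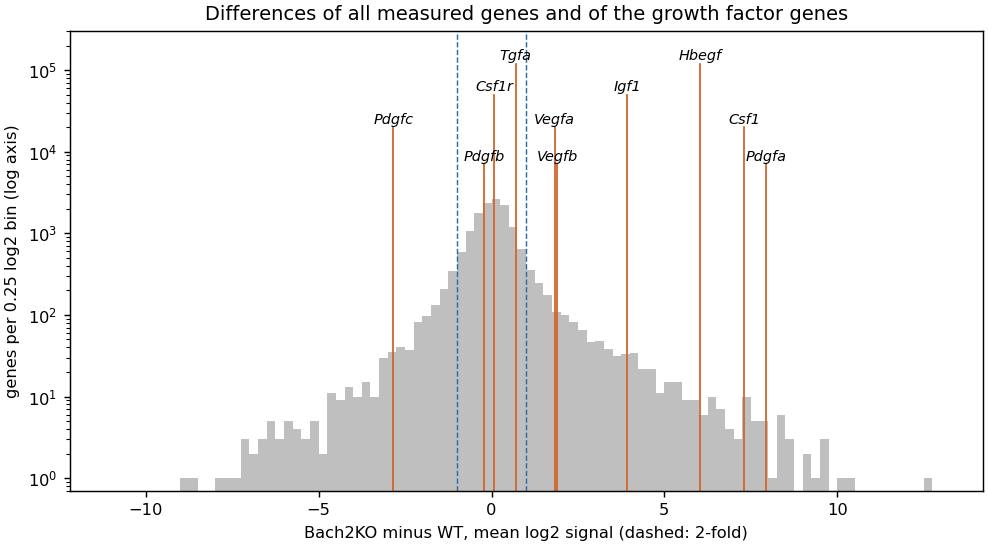
Histogram, on a log axis, of the difference in mean log2 signal between Bach2KO and WT for all 15122 measured genes, with vertical lines (of arbitrary height) at the 10 growth factor genes and dashed lines at 2-fold. Pdgfa at 7.93, Csf1 at 7.31 and Hbegf at 6.04 lie in the sparse right tail, Pdgfc at -2.84 in the left tail, and Csf1r and Pdgfb at the centre.

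The genes with the most similar profiles over the 4 arrays were found by the Euclidean distance of log2 values, each gene centred on its own mean, among 13636 genes. For Pdgfa they were Arg1, which encodes arginase 1, at a distance of 0.23, the heparanase gene Hpse at 0.30 and Igf2r at 0.46, with differences of 8.12, 7.63 and 7.48. For Pdgfc they were the retinoic acid receptor gene Rara at 0.04, the synapsin gene Syn1 at 0.04 and the epidermal lipoxygenase-family gene Aloxe3 at 0.06, with differences of -2.85, -2.87 and -2.83. With only 2 RNA preparations, likeness here means little more than a similar difference.

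The receptors and relatives of these ligands, and the proteases that release them, formed 6 lists of 68 genes. Of these 49 were measured, with 10 called higher in Bach2KO, 5 called lower and 34 that met neither condition. The shares over all genes were 8.37% higher and 5.9% lower. The median difference of the 49 was 0.14, beside 0.06 for all genes. Spike-in scaling gave 7 higher and 10 lower, and normexp background correction 9 and 2.

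Among receptors of the growth factors, those for PDGF and VEGF showed calls. Pdgfra, the receptor that binds the Pdgfa and Pdgfc chains, was not well above background on the WT arrays (-8.20 and -8.60) and was dim in Bach2KO (-3.70 and -3.67), at least 6.33-fold higher, a bound of 3.74-fold with spike-in scaling and 2.47-fold with normexp. Pdgfrb was well above background on neither array of either genotype. Pdgfrl, which encodes a PDGF receptor-like protein, had -3.48 and -3.59 in WT and -4.86 and -4.88 in Bach2KO, 2.52-fold lower, a call that ended with normexp (-0.44).

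Flt1, the VEGF receptor that also binds Vegfb, differed in the opposite direction to that ligand. Its log2 signals were 4.65 and 4.50 in WT and -0.86 and -0.90 in Bach2KO, 43.9-fold lower. The VEGF co-receptor gene Nrp2 was 2.42-fold higher by its brighter probe and 4.11-fold by its other probe, but the brighter probe was not called with spike-in scaling (0.51). Kdr, the main endothelial VEGF receptor, had 2 measured probes that disagreed, with differences of 0.33 for the brighter and 1.75 for the other. Epas1, a hypoxia-inducible factor subunit gene, was 11.0-fold higher by its brightest probe and 18.4-fold by a second, while its remaining probe differed by 0.38.

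In the IGF axis 2 of 11 measured genes were called, beside 14.3% of all measured genes called in either direction. Igf2r, which clears Igf2 and carries mannose 6-phosphate-tagged proteins, had -5.25 on both WT arrays and 2.22 and 2.23 in Bach2KO, 179-fold higher. Igfbp6, a binding protein that prefers Igf2, had -4.36 and -4.28 in WT and -0.36 on both Bach2KO arrays, 15.5-fold higher. Igf1r, the signalling receptor of Igf1, had -4.36 and -4.27 in WT and -4.63 and -4.61 in Bach2KO, a difference of -0.30 that met neither condition.

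In the EGF family the relatives of Hbegf included genes that were lower. The ligand gene Ereg had -3.67 and -3.50 in WT and was not well above background in Bach2KO, at least 5.62-fold lower. The ligand gene Areg had -4.23 and -4.49 in WT and likewise had only a bound, at least 3.29-fold lower. Both calls of Ereg and Areg ended with normexp (-1.04 and -0.68). The offset of 50 that normexp added to each spot shrinks the folds of such dim probes by construction. Nrg4 was 2.18-fold lower by its brighter probe, a call that ended with quantile normalization and with the deposited value table. Its other probe was 2.53-fold lower and was also called. Nrg1 was at least 9.03-fold higher, a bound of 5.34-fold with spike-in scaling and 3.05-fold with normexp. The receptor gene Egfr differed by 0.51 and met neither condition, as did the ligand genes Egf (-0.79) and Epgn (0.12). All 3 were below 0 with spike-in scaling, where Egf was called lower (-1.55). Egf was not well above background in Bach2KO, so its fold had only a bound, at least 1.70-fold lower. With normexp the Egf difference was 0.03.

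Among colony-stimulating factors and receptors 1 of 9 measured genes was called, beside 14.3% of all measured genes in either direction. Kitl, the stem cell factor gene, was 2.71-fold higher, a call that ended with spike-in scaling (0.68) and normexp (0.88). Il34, which encodes the other ligand of Csf1r, had -4.39 and -4.53 in WT and -4.55 and -4.48 in Bach2KO. The ligand genes Csf2 and Csf3 were well above background on no array.

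Of the shedding and activating genes 3 of 11 measured were higher and none lower, beside 8.37% and 5.9% of all genes. Spike-in scaling gave 2 higher and 1 lower. The metalloprotease gene Adam8 had -3.22 and -3.18 in WT and 2.02 and 1.95 in Bach2KO, 36.5-fold higher. Plau, which encodes urokinase, was 4.46-fold higher, and Adam12 2.97-fold, the latter not called with spike-in scaling (0.81). Adam17, a principal sheddase of Tgfa and Hbegf, differed by 0.83, and Plat, whose protease cleaves the CUB domain from Pdgfc, was not measured.

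**Figure D4:**
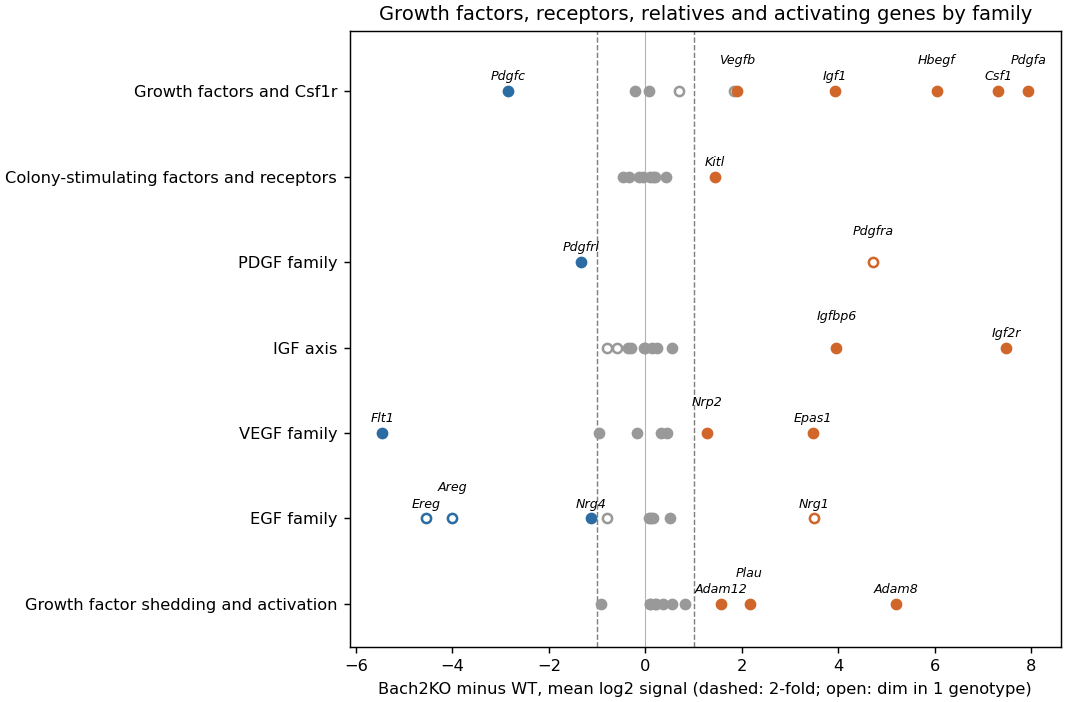
Difference in mean log2 signal between Bach2KO and WT for the measured growth factor genes (top row) and for each family of receptors, relatives and activating genes, with called genes named in orange (higher) or blue (lower), the others in grey, and open circles for genes above background in 1 genotype only. The growth factor calls reach from -2.84 to 7.93, and Flt1, Ereg and Areg lie at the far left of their families.

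Markers of cells that also make or receive these factors differed between the RNA preparations, and their part in the results was not tested. Their summed signals, in multiples of the 75th percentile, add probes whose levels cannot be compared and are often carried by 1 gene, so each sum is also given without its largest gene. Of 10 endothelial markers 6 were measured, with 4 called higher (Cdh5 21.2-fold, Vwf 2.56-fold, Eng 2.07-fold and Esam at least 2.11-fold) and none lower, while Pecam1 and Cldn5 met neither condition. Tek, Tie1, Emcn and Sox17 did not pass the filter. The endothelial sum was 8.58 to 9.12 in WT and 22.4 to 22.7 in Bach2KO, and without Vwf it was 0.37 to 0.40 and 0.85 to 0.91. Of 12 fibroblast and smooth muscle markers 10 were measured, with only Pdpn called (10.5-fold higher), and Col1a1 and Col6a1 did not pass the filter. That sum was 3.18 to 3.37 in WT and 20.8 to 20.9 in Bach2KO, and without Pdpn it was 1.32 to 1.59 and 1.53 to 1.78. Of 17 monocyte and interstitial macrophage markers on the array 15 were measured, with 7 higher and 1 lower. Their sum was 29.8 to 31.7 in WT and 33.1 to 33.5 in Bach2KO, and without Adgre1 it was 9.87 to 10.1 and 14.9 to 15.3.

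Of 11 measured T cell markers 5 were higher (Cd3d, Cd3g, Lck, Zap70 and Bcl11b) and 1 lower (Cd2). Their sum was 61.6 to 62.0 in WT and 23.5 to 24.0 in Bach2KO, and without Cd2 it was 6.96 to 7.77 and 9.41 to 9.56, so the lower total was that of Cd2. Of 9 measured lung epithelial markers 2 were higher (Scgb1a1 and Sftpb) and 2 lower (Krt19 and Epcam, the latter at least 98.1-fold). Their sum was 60.4 to 61.6 in WT and 18.7 to 19.6 in Bach2KO, and without Krt19, which was 3.98-fold lower, it was 3.91 to 3.98 and 4.82 to 4.83. Of 9 neutrophil markers 3 were higher and 1 lower, with a sum of 6.03 to 6.15 in WT and 24.1 to 26.1 in Bach2KO, or 4.70 to 4.76 and 6.44 to 6.90 without S100a8. Of 7 B cell markers 1 was higher, with sums of 0.50 to 0.59 and 0.87 to 1.01, or 0.29 to 0.37 and 0.47 to 0.53 without Fcer2a. Of 3 eosinophil markers none was called, with sums of 0.06 to 0.11 and 0.08 to 0.17, or 0.04 to 0.05 and 0.06 to 0.12 without Il5ra. The share over all genes was 8.37% higher and 5.9% lower. Scaled on spike-in probes, the markers called higher numbered 1 for endothelial, 1 for T cell, 0 for epithelial, 0 for B cell and 5 for monocyte and interstitial macrophage markers. With normexp they numbered 2, 1, 1, 0 and 5, and median centring left 2 endothelial markers. Neutrophil markers called higher stayed at 3 under both spike-in scaling and normexp, and fibroblast and smooth muscle markers at 1. Alveolar macrophage markers called higher numbered 2 with spike-in scaling and 3 with normexp, and no eosinophil marker was called with either.

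Scaling by a single value per array shifts every gene by the same amount, whereas quantile normalization does not. Agilent spike-in probes, used in place of the 75th percentile, lowered each difference by 0.76, which brought the median of all genes to -0.69 and the share of calls that were higher from 58.7% to 15.5%. Under that scaling Csf1, Pdgfa, Igf1 and Hbegf were still called higher (6.55, 7.17, 3.17 and 5.28) and Pdgfc lower (-3.60), while Vegfb was not called. With normexp background correction the differences were smaller, at 5.96 for Csf1, 6.36 for Pdgfa and 4.07 for Hbegf, while that of Igf1 was 3.82. The offset of 50 added in that correction shrinks folds by construction where a signal is dim.

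**Figure D5:**
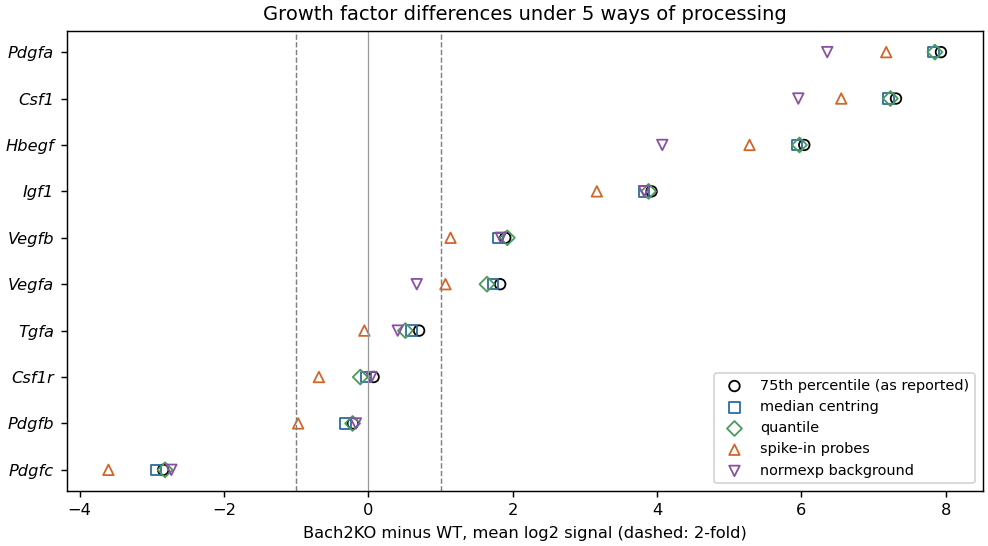
Difference in mean log2 signal between Bach2KO and WT for the 10 growth factor genes under 5 ways of processing, with dashed lines at 2-fold. Differences of Pdgfa, Csf1, Hbegf and Igf1 stay beyond 2-fold in the 5 ways shown, that of Vegfb moves to 1.14 with spike-in probes, that of Tgfa is below 0 with spike-in probes, and that of Csf1r is below 0 with spike-in probes, median centring and quantile normalization.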

How the data were processed

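Alveolar macrophage RNA was measured on 4 Agilent 1-colour arrays, 2 per genotype, grouped by the sample titles. The deposited scanner files give spot intensity. Their headers name Agilent Feature Extraction 10.7.3.1, but version 9.1 stands in the submitters' processing notes. The processed intensity the authors deposited is background-subtracted and not normalized between arrays. Their value table is on the log2 scale as deposited, each column equal to the log2 processed signal of its array minus a constant (1189, 1416, 947 and 896 in linear units), with higher values for brighter probes and medians of -3.58, -3.67, -3.53 and -3.45.

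Control spots and outlier spots (109 to 136 of 43020 per array) were left out and no spot was saturated. Spots of a probe were averaged as log2 values, and the 75th percentile of all spots that were not controls (1267 and 1513 in WT, 1036 and 979 in Bach2KO) was subtracted. A probe was well above background where most of its spots were. The number of arrays limits the precision. For a lower bound, the dim genotype took on each array the larger of the probe's signal and the lowest signal of any probe well above background there. Symbols came through unversioned accessions from RefSeq genes of GRCm38.p6 (26055 probes with 1 symbol, 0 with several, 13374 with none), and as the array was designed on mm9, coordinates are given for RefSeq promoter windows alone. The brightest measured probe stood for a gene.

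The members, gene lists and alternatives were chosen with earlier results of these data known. Named genes were all members, up to 4 called genes per pathway list, or 2 bright ones where none was called, the direct receptors of the ligands, Il34 and the 3 genes nearest to the members with the largest and smallest difference. Adam17, Plat, Csf2, Csf3, Egf, Epgn and those called marker genes that are named were chosen after their values were seen. Other called marker genes are given by count only. For that likeness each gene was centred on its own mean, because levels of different probes cannot be compared. Python 3.11.15, pandas 2.3.3, numpy 2.4.6 and limma 3.58.1 in R 4.3.3 (normexp with an offset of 50, on median spot signals) were used. The fold part of the rule was tried on simulated data in which every probe counted as well above background. The filter and the lower bound were not tried there. Alternatives were other scalings (median, quantile, 9 spike-in probes), normexp, the deposited table, filters, thresholds of 1.5-fold and 3-fold, the mean of probes, paired arrays and each array left out.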

Additional observations from a re-analysis of the deposited data

How the results depend on the processing

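The number of growth factor genes called was 5 higher and 1 lower in every alternative run but 1.5-fold and spike-in scaling. It was 6 higher at the 1.5-fold threshold, which added Vegfa, and 4 higher with spike-in scaling, which lost Vegfb. No called difference among them changed sign under any alternative that gave a value. Pathway genes called lower, 5 as reported, numbered 10 with spike-in scaling, 2 with normexp, 3 with a filter for signal above background on all 4 arrays, 8 at 1.5-fold and 3 at 3-fold. Over all genes, 1266 higher and 892 lower became 601 and 3283 with spike-in scaling, 2237 and 1933 at 1.5-fold and 695 and 410 at 3-fold. The fold thresholds and the filter act by their own construction, as does spike-in scaling, which lowered each difference by 0.76. The offset of 50 in normexp also shrinks the folds of dim probes by construction, and the rest of its effect was not tested. Without 1 array at a time the members called stayed at 5 and 1, and all genes called ranged from 1318 to 1496 higher and from 961 to 1037 lower.

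Arrays of the same replicate number share only a number. Their deviations from the genotype means correlated at -0.14 over genes, and the replicate block, which compares arrays of the same number, called 5 members higher and 1 lower and 1301 and 916 of all genes. The crossed pairing, chosen after seeing the data, gave 5 and 1, and 1340 and 944. Signal over background limits Vegfa and Tgfa, where small differences could not be resolved, and the arrays carry no spread between mice.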
